A study of Homo sapiens with 6 samples.

Results

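The plasminogen activator genes PLAU, PLAT and PLAUR and the protease inhibitor genes SERPINE2 and SERPINB2 were examined, 5 of the 58336 genes in the deposited tables. They were taken by gene symbol as activators, receptor and inhibitors of one pathway. The rule itself uses no measured value, but the genes were chosen with earlier results of these data known. The data are 6 RNA-seq libraries made from clones of the KGN line, which was established from a granulosa cell tumour of the ovary, at 30 h after transfection (with what, the labels do not say). The FOXL2 WT/WT libraries come from cells in which CRISPR/Cas9 had reverted the C134W change of FOXL2, a forkhead transcription factor of granulosa cells, and are titled 44a, 4.72 and 4.72-44a. The FOXL2 WT/C134W libraries carry 1 wild-type and 1 C134W allele and are titled 3.11, 44b and 3.11-44b. A treatment is recorded for the WT/WT libraries alone, so genotype and editing cannot be told apart. The titles 4.72-44a and 3.11-44b join the names of the other 2 libraries of their genotype and may be mixes, so the genotypes were compared over 44a and 4.72 against 3.11 and 44b, 2 clones each. Nothing in the labels says how many cultures stand behind a library, so p-values measure the spread between these clones.

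Plasminogen is an inactive zymogen in blood and tissue fluid that urokinase (PLAU) and tissue plasminogen activator (PLAT) cleave to plasmin, a broad serine protease. Urokinase acts mostly at the cell surface, where it is held by its receptor, the product of PLAUR, and plasmin degrades fibrin and matrix proteins and activates other proteases. Serpins such as protease nexin 1 (SERPINE2) and plasminogen activator inhibitor 2 (SERPINB2) trap the activators in inactive complexes. In the ovary, granulosa cells secrete plasminogen activators around ovulation.

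Total expected counts, RSEM's estimates of reads per gene, lay between 35332727 and 46613068 per library. The 4 genes other than SERPINB2 held between 1509 and 24767 counts in each library, and at 1509 counts the counting SD is 2.57%. Of 11 granulosa cell markers, 5 reached 1 TPM (a transcript level scaled by gene length to a common sum) in a library. FSHR, AMHR2, GATA4 and WT1 had 0 counts in all 6 libraries. Together the markers, with FST the most abundant, summed to 159 to 176 TPM in WT/WT and 85.3 to 172 TPM in WT/C134W. FOXL2 was measured at 7.42 and 4.83 normalised CPM (counts scaled to a common library size by TMM) in 44a and 4.72 and at 9.31 and 10.1 in 3.11 and 44b. Libraries 4.72-44a and 3.11-44b held 4.34 and 6.35 CPM, both below the clones they name, and over the 6 libraries the genotypes overlapped. FOXL2 counts do not check the genotype, since a gene count does not tell the alleles apart. Of 7 leukocyte and macrophage markers, cells in which PLAUR and SERPINB2 are known to be abundant, ITGAM, LYZ and FCGR3A had 0 counts. Their summed level was 103 to 115 TPM in WT/WT and 105 to 125 TPM in WT/C134W and came mostly from CD68, which encodes a lysosomal protein. Endothelial markers summed to between 0.59 and 5.17 TPM, with CDH5 at 0. Fibroblast and stromal markers summed to 803 to 1013 TPM in WT/WT and 641 to 780 TPM in WT/C134W. Epithelial markers, led by KRT18, summed to 1095 to 1523 and 451 to 1411 TPM, and theca markers to no more than 0.57 TPM. Whether cells of another type had a part in the results was not tested.

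SERPINE2 was the most abundant transcript of the 5 genes per gene length in every library except 4.72, where PLAU was above it. Levels of SERPINE2 ran from 256.56 to 485.92 TPM and were above those of at least 97.6% of 19863 protein-coding genes in each library. PLAU ran from 113.84 to 286.53 TPM and PLAUR from 108.95 to 149.58 TPM, and these ranges overlapped, so their order is not settled beyond the spread between libraries. PLAT came next at 23.96 to 50.66 TPM, below PLAUR in all 6 libraries. SERPINB2 was last, with no more than 0.75 TPM. These are levels in bulk RNA, in which fewer expressing cells and less RNA per cell cannot be told apart.

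**Figure D1:**
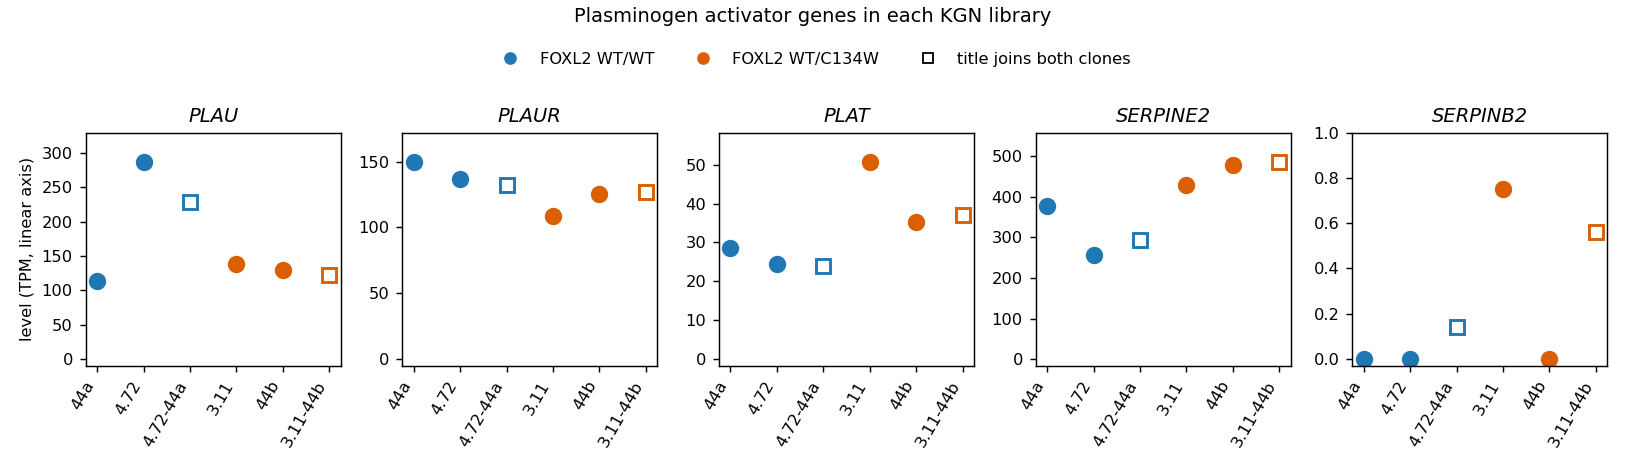
TPM of each gene (y, linear, a separate scale per panel) in each library (x). Filled circles are single clones and open squares the libraries whose title joins both clones. PLAU stands at 286.53 TPM in 4.72, while PLAT is higher in each WT/C134W library than in each WT/WT library.

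PLAU, which encodes urokinase (ENSG00000122861, chromosome 10, 73909177 to 73917497 on the plus strand, GRCh38), differed more between the reverted clones than between the genotypes. Reverted clones 44a and 4.72 measured 182 and 466 normalised CPM, and mutant clones 3.11 and 44b measured 195 and 187. Of the joined libraries, 4.72-44a lay between its clones at 356 CPM and 3.11-44b below its clones at 176 CPM. Clone 4.72 was the high one of the 4 clones, followed among the libraries by 4.72-44a, while 44a lay below both mutant clones, so the genotypes overlapped. Means were 324 ± 200 CPM for WT/WT and 191 ± 5.58 CPM for WT/C134W (SD, n = 2 clones). The fold between 4.72 and 44a was 2.55, and 4.74% of all genes tested were that far apart or more between these clones. In the mutant pair the fold was 1.04. On the log2 scale WT/C134W stood at -0.76 ± 0.45 relative to WT/WT (SE derived from the F of edgeR's test, n = 2 clones each; all log2 fold changes have this direction), with an adjusted p of 0.765 in edgeR's quasi-likelihood test. Without 4.72 the log2 fold change was 0.07, and without 44a it was -1.30. Limma on log2(TPM + 1) gave -0.43. An exon of PLAU overlaps C10orf55 on the opposite strand, and RSEM divided reads between the genes, with 16.84 to 81.40 expected counts given to C10orf55. The strand setting of the counting is not given in the sources used here, so the reads of this pair cannot be fully told apart.

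PLAT, which encodes tissue plasminogen activator (ENSG00000104368, chromosome 8, 42175233 to 42207724 on the minus strand, GRCh38), had higher values in both mutant clones than in both reverted clones. Clones 44a and 4.72 measured 41.4 and 38.9 normalised CPM, clones 3.11 and 44b 65.7 and 50.4. Libraries 4.72-44a and 3.11-44b stood at 38.7 and 55.2 CPM, so the 3 libraries of each genotype did not overlap either. The joined libraries may be mixes of the clones they name, so this need not be a further result. How many of all genes separate the 3 libraries of each genotype was not computed. The WT/WT mean was 40.1 ± 1.81 CPM and the WT/C134W mean 58.1 ± 10.8 CPM (SD, n = 2 clones). The log2 fold change was 0.53 ± 0.19 (SE), a 1.45-fold difference, and it did not pass the threshold over all genes (adjusted p = 0.647, edgeR). Without 3.11, the clone with the highest level, the value was 0.33.

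PLAUR, which encodes the membrane-anchored urokinase receptor (ENSG00000011422, chromosome 19, 43646095 to 43670547 on the minus strand, GRCh38), had the opposite order. Clones 44a and 4.72 measured 135 and 125 normalised CPM, clones 3.11 and 44b 82.8 and 103. Libraries 4.72-44a and 3.11-44b stood at 118 and 103 CPM, again with no overlap between genotypes. For PLAUR too, the joined libraries may repeat the clones they name, and the share of all genes with such an order was not computed. The WT/WT mean was 130 ± 6.64 CPM and the WT/C134W mean 92.7 ± 14 CPM (SD, n = 2 clones), a log2 fold change of -0.49 ± 0.17 (SE) with an adjusted p of 0.647 in edgeR's test. Scaled by library totals alone, the value was -0.27, where the median of all genes stood at 0.23 in place of 0.01, and limma on log2(TPM + 1) gave -0.29.

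SERPINE2, which encodes protease nexin 1, an extracellular inhibitor of thrombin, urokinase and plasmin (ENSG00000135919, chromosome 2, 223975112 to 224039319 on the minus strand, GRCh38), overlapped between the genotypes in normalised CPM. Clones 44a and 4.72 measured 486 and 334, clones 3.11 and 44b 474 and 546. Libraries 4.72-44a and 3.11-44b stood at 382 and 544 CPM, both between the clones they name. Only 4.72 and the library that joins it were low. The log2 fold change was 0.31 ± 0.23 (SE, edgeR adjusted p = 0.828), with 0.07 without 4.72, 0.59 without 44a and 0.20 without 44b. Scaled by library totals alone it was 0.53, and limma on log2(TPM + 1) gave 0.54. Over all genes the medians of these fits were 0.23 and 0.14, against 0.01 in the reported fit. In TPM the order differed, with 377.18 and 256.56 for 44a and 4.72 but 428.34 and 478.70 for 3.11 and 44b, which do not overlap. The share of all genes without overlap in TPM was not computed.

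SERPINB2, which encodes plasminogen activator inhibitor 2, an inhibitor that stays largely inside the cell (ENSG00000197632, chromosome 18, 63871692 to 63903890 on the plus strand, GRCh38), was close to undetected. It had 0 counts in 44a, 4.72 and 44b. Zero counts allow a level of up to 0.068, 0.074 and 0.0662 CPM in these libraries (3 counts each). In 3.11 it had 36 counts (exact 95% Poisson interval 25.2 to 49.8, counting error only), or 0.871 CPM. The joined libraries held 7 counts (4.72-44a) and 11.97 counts (3.11-44b). In 3.11-44b another 18.03 counts went to SERPINB10, a neighbouring serpin gene on the same strand with overlapping exons, and both together make 30.00 counts. The gene did not pass the filter on low counts and was not tested, and its presence in 3.11 without 44b is a difference between clones of the same genotype.

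Promoter windows from RefSeq (GRCh38.p14), 250 bases before to 50 after a start site, matched 4 of the 5 genes. PLAU and SERPINE2 each have 2 windows, for different start sites. The windows of PLAU, the gene with a high level in 4.72, of PLAUR, the gene lower in both mutant clones, and of SERPINB2, the gene at or near 0, are shown 5′ to 3′ on the gene's strand. Capitals mark matches to the TATA box (TATAAA, gene strand), the AP-1 core (TGANTCA), a forkhead core (GTAAACA) and the GC box (GGGCGG), the last 3 on both strands.
PLAU, chr10:73910360-73910659, plus strand: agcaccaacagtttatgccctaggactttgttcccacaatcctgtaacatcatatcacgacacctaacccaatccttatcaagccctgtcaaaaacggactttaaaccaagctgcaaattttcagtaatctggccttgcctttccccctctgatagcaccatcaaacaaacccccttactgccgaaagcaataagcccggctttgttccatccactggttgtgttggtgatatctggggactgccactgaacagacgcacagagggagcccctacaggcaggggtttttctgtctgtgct
PLAU, chr10:73910882-73911181, plus strand: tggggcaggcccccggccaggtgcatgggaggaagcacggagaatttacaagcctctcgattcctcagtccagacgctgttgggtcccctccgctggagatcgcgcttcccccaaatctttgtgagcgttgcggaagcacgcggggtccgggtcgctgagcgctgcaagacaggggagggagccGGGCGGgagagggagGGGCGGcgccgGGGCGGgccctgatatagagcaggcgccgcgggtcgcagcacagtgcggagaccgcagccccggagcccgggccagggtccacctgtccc
PLAUR, chr19:43670120-43670419, minus strand: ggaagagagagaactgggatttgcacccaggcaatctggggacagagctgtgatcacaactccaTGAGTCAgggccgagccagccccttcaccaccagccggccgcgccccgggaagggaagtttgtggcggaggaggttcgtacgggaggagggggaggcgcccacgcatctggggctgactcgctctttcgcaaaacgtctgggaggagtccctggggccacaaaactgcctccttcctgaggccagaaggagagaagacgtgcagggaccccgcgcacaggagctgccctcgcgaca
SERPINB2, chr18:63887455-63887754, plus strand: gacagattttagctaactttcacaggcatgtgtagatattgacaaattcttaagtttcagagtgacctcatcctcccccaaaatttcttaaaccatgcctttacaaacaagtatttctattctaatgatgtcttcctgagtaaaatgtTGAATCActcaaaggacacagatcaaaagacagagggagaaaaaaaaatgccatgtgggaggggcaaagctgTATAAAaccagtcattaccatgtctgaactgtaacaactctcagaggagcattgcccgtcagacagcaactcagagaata

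The second PLAU window held 3 GC boxes, starting 66, 51 and 40 bases before the start site, and the first held no match. GC boxes occur in 45% of the 35116 windows of this length in the table. PLAUR had 1 AP-1 core, at position -186 from its start site, and SERPINB2 had an AP-1 core 102 bases and a TATA box 30 bases before its start site. The AP-1 core is found in 7.71% and the TATA box in 7.33% of all windows. In the windows of SERPINE2 the only matches were GC boxes, 1 in one and 2 in the other. None of the 6 windows held the forkhead core, which 3.42% of all windows hold. A match is a run of letters and not a measured binding site.

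Over the 4 genes tested, 0 passed the threshold of an adjusted p under 0.05 when edgeR was run on the 4 single clones, against 0% of all 16416 genes tested there. The unadjusted p was under 0.05 for 2 of the 4, PLAUR and PLAT, against 7.57% of all genes (1243 genes). PLAT was 1 gene with every mutant clone above every reverted clone, an order shown by 19.9% of all genes, and PLAUR was 1 gene with the reverse order, shown by 19.7%. With all 6 libraries in the fit 0 of the 4 were called, against 3.18% of all genes, and the adjusted p of PLAT was 0.0567. DESeq2 and limma voom also called 0 of them, against 1.83% of the genes to which DESeq2 gave an adjusted p and 0 of all genes with limma voom. Without a filter on low counts edgeR called PLAU (log2 fold change -0.77, adjusted p = 0.0231), 1 of 5 against 2.73% of all genes, although the value changed sign without 4.72 in the filtered fit.

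**Figure D2:**
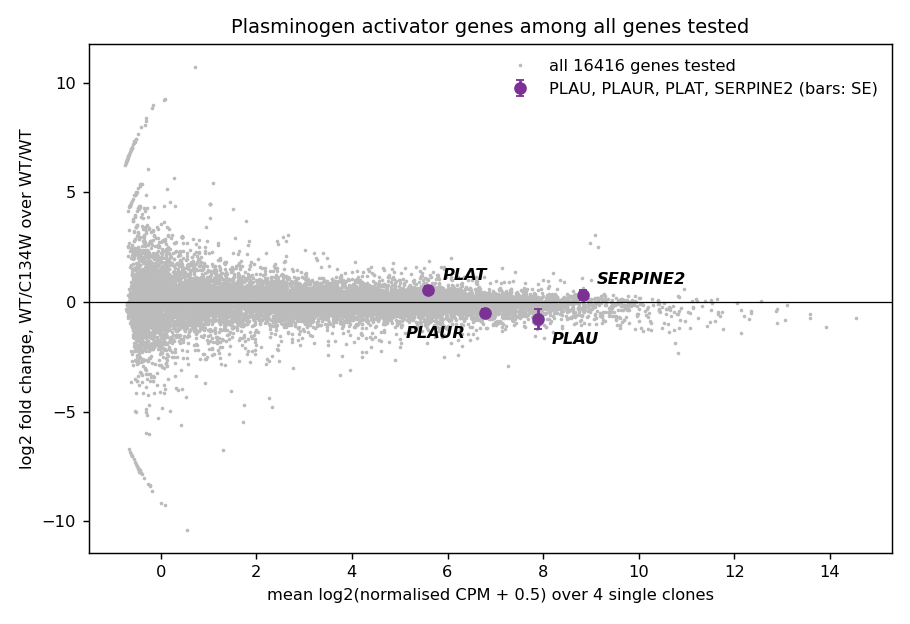
Log2 fold change (y, WT/C134W over WT/WT) against the mean log2 level over the 4 single clones (x) for the 16416 genes tested, with PLAU, PLAUR, PLAT and SERPINE2 in purple and bars for the SE. The 4 values lie between -0.76 and 0.53, inside the cloud of genes of similar level.

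**Figure D3:**
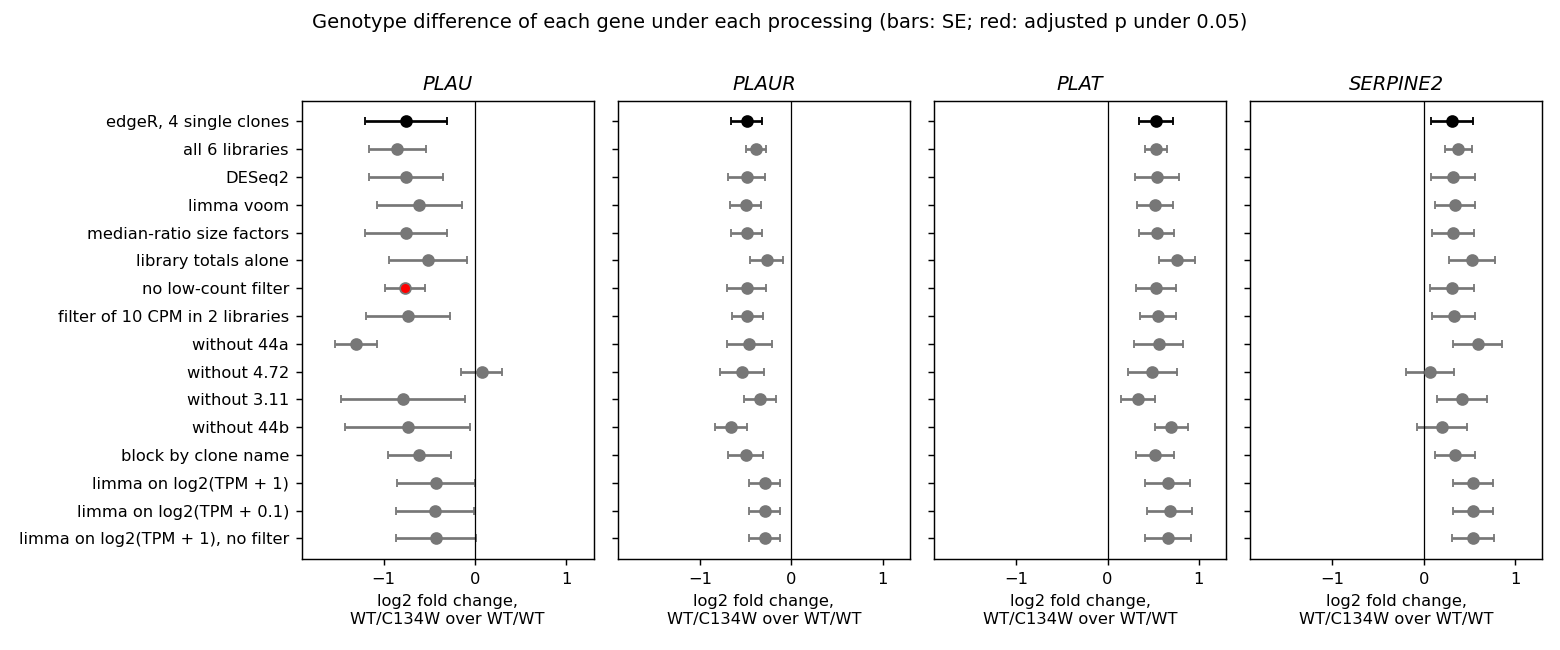
Log2 fold change (x) with its SE for PLAU, PLAUR, PLAT and SERPINE2 under each processing (y), with the reported fit in black and an adjusted p under 0.05 in red. PLAUR stays below 0 (-0.66 to -0.27) and PLAT above 0 (0.33 to 0.76) under the processings shown, whereas PLAU crosses 0 without 4.72.

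Ratios between the genes within a library do not depend on how libraries are scaled to each other. The TPM of PLAT relative to PLAUR was 0.191 in 44a and 0.178 in 4.72, against 0.465 in 3.11 and 0.28 in 44b, a 1.96-fold difference between the genotypes' geometric means. The joined libraries stood at 0.181 and 0.292. PLAT and PLAUR each separated the 3 libraries of each genotype alone, in opposite directions. Their ratio therefore had to separate these libraries too and is not a further result. PLAU relative to PLAT was 3.99 and 11.7 in reverted but 2.72 and 3.68 in mutant clones, without overlap, but 44a lay close to 44b. For PLAU relative to SERPINE2 the values were 0.302 and 1.12 against 0.322 and 0.27, with 44a between the mutant clones. PLAT relative to SERPINE2 was 0.0756 and 0.0953 against 0.118 and 0.0735, and PLAU relative to PLAUR was 0.761 and 2.09 against 1.27 and 1.03. The sum of PLAU and PLAT relative to SERPINE2 was 0.377 and 1.21 against 0.44 and 0.344. Of the 6 ratios computed, these last 4 overlapped between the genotypes' clones. How often ratios of other gene pairs overlap was not computed. With 2 clones against 2 an exact two-sided permutation test cannot give a p below 0.333, so these ratios are given without one.

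**Figure D4:**
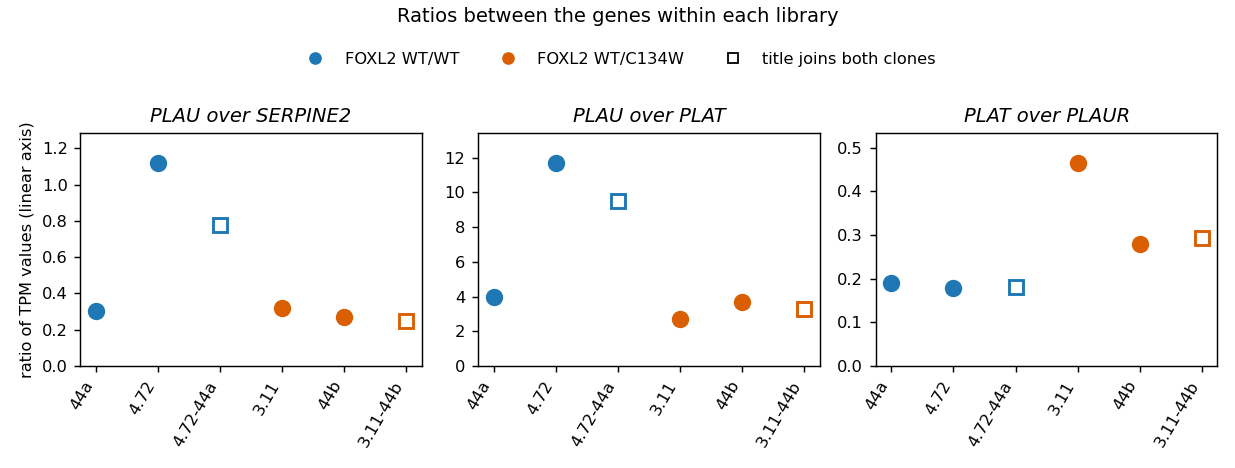
Ratio of TPM values (y, linear) between pairs of the genes in each library (x), with filled circles for single clones and open squares for libraries whose title joins both. The ratio of PLAT to PLAUR is 0.178 to 0.191 in the WT/WT libraries and 0.28 to 0.465 in the WT/C134W libraries. This separation follows from those of PLAT and PLAUR alone.

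RSEM also reports the mean transcript length of each gene, weighted by the estimated abundance of its transcripts. For SERPINE2 it was 1933 and 1915 bases in reverted but 1882 and 1864 bases in mutant clones, with 1959 and 1848 bases in the joined libraries. PLAUR had 1400 and 1396 bases against 1346 and 1383 bases, with 1387 and 1382 bases in the joined libraries. Both genes had the shorter means in the mutant clones, an order shown by 13.5% of all genes tested. For PLAU, at 2365 and 2351 against 2361 and 2320 bases, and PLAT, at 2158 and 2304 against 2180 and 2299 bases, the genotypes overlapped. Shares of single transcripts were not analysed here.

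The genes whose pattern over the 6 libraries was most like that of each of the 4 genes were found among 11180 protein-coding genes by the root mean square difference of log2 levels centred on each gene's mean. Nearest to PLAU was SEMA7A, a membrane-anchored semaphorin, at a distance of 0.091, with 719 and 1568 CPM in 44a and 4.72 and 624 and 654 CPM in 3.11 and 44b. ST6GALNAC6, a sialyltransferase gene, followed at 0.138. The distances of SLC12A4, ARFGAP1 and STRN4 from PLAUR were 0.037, 0.039 and 0.044. For PLAT the nearest genes were RBM26 (0.040), SP100 (0.042) and SDCBP (0.050), and for SERPINE2 they were MARCKSL1 (0.027), ANXA1 (0.048) and ITPR2 (0.064). ANXA1, which encodes a phospholipid-binding protein, had 463 and 308 CPM in reverted but 480 and 535 CPM in mutant clones. The joined libraries may repeat the clones they name, so these distances rest on fewer than 6 independent samples. Because the genes were picked by these same levels, their likeness in order is not a further result. The typical distance between genes is not given here.

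Among plasminogen and other inhibitors of the pathway, 3 of 9 genes could be tested and 0 were called, with 2 positive values and 1 negative and a median log2 fold change of 0.29 against 0.01 over all genes. PLG itself, the gene of plasminogen, had no more than 1 count in any library (0.0257 CPM in 4.72-44a). A2M, a broad protease trap, was measured at 5.99 and 4.88 CPM against 28.5 and 14.7 CPM (log2 fold change 1.99 ± 0.38, adjusted p = 0.512). SERPINA5 was found in 44a and 44b at 16.1 and 4.55 CPM and had 0 counts in 4.72 and 3.11, and F12 stayed below 2 CPM.

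Plasminogen receptors and partners of the urokinase receptor had mostly negative values, 11 of 14 tested, with a median of -0.36 against 0.01 over all genes, and 0 were called. For 8 of the 14 every mutant clone lay below every reverted clone, an order shown by 19.7% of all genes, and the reverse held for 0. ITGAV, the alpha chain of the vitronectin receptor, had 500 and 516 CPM in reverted but 219 and 228 CPM in mutant clones (log2 fold change -1.18 ± 0.16, adjusted p = 0.48). ITGAV and MRC2 were called with all 6 libraries and with DESeq2, as were A2M, SERPINB7, SERPINH1, TFPI, JUNB and EGR1 of the other lists. Over all genes, 3.18% were called with all 6 libraries and 1.83% of those with an adjusted p in DESeq2. The fit of all 6 counts the joined libraries as further samples, although they may be mixes of the clones they name. ITGA5, the alpha chain of the fibronectin receptor, had 2108 and 3648 CPM against 926 and 1572 CPM. MRC2, a collagen receptor that binds the urokinase receptor, had 1251 and 946 CPM against 615 and 562 CPM. VLDLR, an endocytic receptor that clears protease and inhibitor complexes, stood at 35.6 and 23.5 against 18.9 and 16.5 CPM. With library totals alone 8 of the 14 were negative and the median was -0.13, against 0.23 over all genes. Fibroblast and stromal markers summed to a lower level in WT/C134W too, and their part in these values was not tested.

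Of other serpins 8 of 18 were tested, 5 with positive and 3 with negative values, a median of 0.07 and 0 called. SERPINB7 stood at 3.38 and 6.14 CPM in reverted but 21.6 and 14.8 CPM in mutant clones (log2 fold change 1.93 ± 0.40, adjusted p = 0.55). SERPINH1, the collagen chaperone, had 920 and 1040 CPM against 582 and 513 CPM. SERPINF1 and SERPINA3 varied between clones of the same genotype, at 6.01 and 1.18 against 0.145 and 2.74 CPM and at 2.25 and 0 against 0 and 0.596 CPM.

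Coagulation genes and protease receptors had 5 positive values of 6 tested (median 0.30) and 0 calls. TFPI, the inhibitor of the tissue factor pathway, had 13.8 and 10.9 CPM in reverted but 38.7 and 27.4 CPM in mutant clones (log2 fold change 1.42 ± 0.25, adjusted p = 0.481). F2RL1, a receptor cleaved by trypsin-like proteases, had 30.3 and 11.8 against 53.2 and 69.4 CPM. PROCR, the protein C receptor, had 17.4 and 24.1 against 25.8 and 32.3 CPM, and F2R, the thrombin receptor, overlapped at 135 and 223 against 175 and 124 CPM.

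Transcription factors of the AP-1 and ETS families and others known to act on plasminogen activator genes gave 11 negative values of 17 (median -0.30) and 0 calls. JUNB, an AP-1 subunit, had 118 and 66.3 CPM in reverted but 23.2 and 26.6 CPM in mutant clones, and EGR1, an immediate early factor, had 48.8 and 76.5 against 15.3 and 18.7 CPM. Their log2 fold changes were -1.89 ± 0.30 and -1.88 ± 0.27, each with an adjusted p of 0.48. NFKB1 (-0.45) and JUND (-0.52) were the other 2 with the smallest p. With library totals alone 9 of the 17 were negative, with a median of -0.08.

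**Figure D5:**
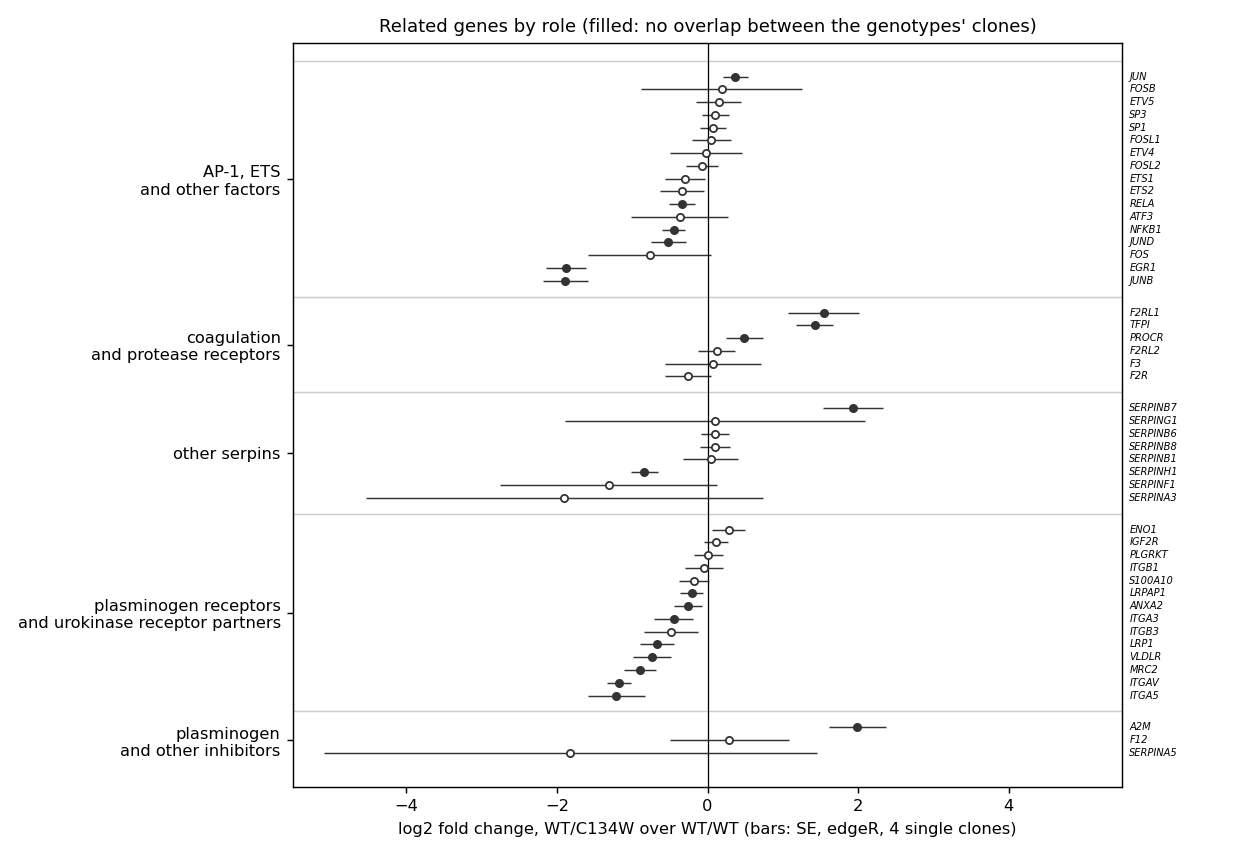
Log2 fold change (x, WT/C134W over WT/WT, bars for the SE) of the 48 genes tested in the lists of related genes, grouped by role (y). Filled points mark genes whose mutant and reverted clones do not overlap in normalised CPM, such as ITGAV at -1.18 and A2M at 1.99, and 0 of the genes were called.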

How the data were processed

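RNA-seq gene tables of 6 KGN libraries were used. Per the file headers, the authors deposited RSEM's expected count (estimated count of reads per gene, unscaled, with decimals) and TPM (scaled by effective gene length to a common sum). RSEM 1.3.1 is named in the submitters' processing notes, as are DESeq2 1.26.0 and STAR 2.7.6a, without roles. The notes also name GRCm38, a mouse build, while the 58336 gene IDs are all human; the human build and the strand setting were not given in the sources used here.

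Symbols and GRCh38 coordinates came from GENCODE release 29, which held 58216 of the IDs. Expected counts were rounded, filtered with filterByExpr, scaled by TMM and tested over all genes with edgeR 4.0.16 under R 4.3.3 (glmQLFit, robust; glmQLFTest). Adjustment was by Benjamini-Hochberg, with 0.05 as threshold. SE was computed as the absolute log2 fold change over the root of F. The functions were run on simulated data with the same dispersion for all genes and larger changes than those of the plasminogen activator genes. That run was a check of the code and not of the power of the comparison. Normalised CPM is TMM-scaled over the 6 libraries, and pattern distances used log2(CPM + 0.5) of genes averaging 2 CPM or more. Total counts of 35332727 to 46613068 make 3 counts equal to 0.0662 to 0.0783 normalised CPM.

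Named genes are the 5 genes, FOXL2, up to 4 genes with the smallest p from each list of related genes and up to 3 nearest patterns per gene, less 1 gene that is not reported here and was left out of the lists; PLG and SERPINB10 and the marker genes at 0 were named beside them for their counts, after their values were seen. The 5 genes and the lists were chosen with earlier results of these data known. Alternatives were all 6 libraries, DESeq2 1.42.0, limma 3.58.1 voom, other scalings and filters, each clone left out, a block by clone name and limma on log2(TPM + 1) or log2(TPM + 0.1).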

Additional observations from a re-analysis of the deposited data

Results flagged for a closer look

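SERPINB2 gave 7 expected counts in 4.72-44a, a library outside the comparison, while both clones that its title names, 44a and 4.72, had 0. This is above the 3 counts that a count of 0 allows. The exact 95% Poisson interval of 7 counts is 2.81 to 14.4, and that of 0 counts reaches 3.69. An overlap of 2 such intervals does not decide whether the counts differ. No test compared the libraries for this gene, and whether 4.72-44a is a mix of the 2 clones was not tested.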

How the results depend on the processing

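Of 579 recomputed values, 526 kept their direction and their side of the threshold (for counts, stayed within 1.5 times), 36 log2 fold changes passed the threshold in the alternative alone, 9 counts moved and 8 log2 fold changes changed sign. Genes called over all genes went from 0 to 511 with all 6 libraries, 277 with DESeq2, 664 without the low-count filter, 5 with the replicate block by clone name and 1 with limma on log2(TPM + 0.1), and the cause was not tested. Genes of the related lists called went from 0 to 9, 10 and 11 in the first 3 of these, ITGAV, MRC2, A2M, SERPINB7, SERPINH1, TFPI, JUNB and EGR1 in each. The fit of all 6 libraries counts the joined libraries as further samples, which they may not be. Among the 5 genes 1 was called, PLAU at -0.77 without the low-count filter. Leaving out 1 clone at a time gave log2 fold changes of -1.30 to 0.07 for PLAU, -0.66 to -0.34 for PLAUR, 0.33 to 0.70 for PLAT and 0.07 to 0.59 for SERPINE2. The ranges that included a change of sign for other genes were -11.40 to 9.59 for SERPINA5, -0.27 to 1.20 for F12 (also -0.01 without 3.11), -8.56 to 6.68 for SERPINA3, -4.61 to 0.27 for SERPINF1, -0.59 to 0.15 for F2R and -0.02 to 0.63 for ITPR2. A fit without 1 clone takes the lone clone of that genotype to vary like the other 2. The block paired 44a with 44b, by the shared start of their names, and 4.72 with 3.11. The labels do not pair them, and the deviations of 44a and 44b from their genotype means correlated across genes at 0.24. PLAU had -0.61 with the block. SERPINB2 was too low for the filter, and its log2 fold change in unfiltered fits depends on the prior count and is not given. With 2 clones per genotype, 0 of the 16416 genes tested in the reported fit were called, and the smallest adjusted p in edgeR's test was 0.324. This covers PLAUR and PLAT and also larger differences, such as those of ITGAV (-1.18) and JUNB (-1.89).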
